A study of Mus musculus with 24 samples.

Results

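The genotype dependence of the succinate response was measured in the 12 female libraries of a series of 24 bulk poly(A) RNA-seq libraries from the distal jejunum of mice. All 12 libraries labelled female were used, in 4 groups of 3: wild type on regular water, wild type on 100 mM succinate, Ptk6-/- on regular water and Ptk6-/- on 100 mM succinate. Succinate was given in the drinking water for 7 days, and the mice, on a C57BL/6 background and from different litters of a single colony, were 9 to 11 weeks old at the end. The Ptk6 allele is a germline knockout, so every cell of the animal lacks the kinase, not only the epithelium. Each library is labelled as a separate biological replicate, and the female libraries held between 34248289 and 50024575 counts.

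The quantity followed throughout is the interaction, taken gene by gene: the log2 fold change after succinate in Ptk6-/- females minus the log2 fold change after succinate in wild type females. An interaction above 0 means a larger rise, or a smaller fall, in Ptk6-/- than in wild type. It was tested for the 20531 of 56691 listed genes with 10 or more counts in 3 or more female libraries. A gene was called when its Benjamini-Hochberg adjusted p in edgeR was under 0.05 and its fold change at least 2.

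Succinate in the lumen is a signal of the small intestinal microbiota, above all of protists, and is sensed by tuft cells, rare chemosensory cells of the epithelium. The receptor SUCNR1 acts through a taste-like cascade (a G protein, phospholipase C beta 2 and the cation channel TRPM5), and tuft cells then release interleukin 25. Interleukin 25 makes group 2 innate lymphoid cells secrete interleukin 13, which turns epithelial progenitors toward tuft and goblet cells, so that the circuit amplifies itself. PTK6 is an intracellular tyrosine kinase related to SRC and is made by differentiated cells of the intestinal epithelium.

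The targeted gene was read first. Ptk6 (ENSMUSG00000038751, chr2:180835514-180844582 in GRCm39, minus strand) stood at 49.7, 36.6 and 27.7 CPM (counts scaled to a common library size) in the wild type controls and at 9.896, 9.24 and 21.2 CPM after succinate. In Ptk6-/- females it was at 0.6098, 0.691 and 0.977 CPM in the controls and 0.969, 0.321 and 0.323 CPM after succinate, so all 6 Ptk6-/- libraries lay below all 6 wild type libraries. Every wild type succinate library was below every wild type control library for Ptk6, but the fall did not pass the test (log2 fold change -1.5, adjusted p = 0.32). The relatives Frk and Srms had interactions of 0.17 ± 0.39 (SE) and 1.99 ± 1.86.

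A pair of wild type succinate libraries stood apart. Replicate 2 held 33327 CPM summed over the 21 heart muscle genes tested, against at most 183.3 CPM in the other 11 libraries. It also held 30.4 CPM of Eif2s3y, the 1 Y-linked gene tested, in a library labelled female. Its share of counts on mitochondrial genes was 13.6%, against 1.67% to 8.54% elsewhere. The atrial myosin gene Myh6 was at 8.91, 9049 and 0.242 CPM in the 3 wild type succinate libraries. Values without this library are therefore given beside the edgeR counts of called genes, the gene list medians and many of the genes that it moves, and single-gene interactions are from all 12 libraries unless stated. Replicate 3 of the same group had a summed level of 275.8 CPM over the tuft cell signalling genes, against 613.5 and 697.5 CPM in the other wild type succinate libraries and 140.1 to 183.9 CPM in the 6 controls. In Ptk6-/- succinate, replicate 1 was also the lowest of its group, at 352.3 CPM against 606.5 and 694.7 CPM. Both arms thus held a treated library with a lower tuft level, and results were also computed without each library.

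The genes that changed in both genotypes include an epithelial ion channel and a cluster of gasdermins, and promoter sequences are shown for Kcnj16 and Gsdmc3, called in both genotypes, and for Dclk1, the common tuft cell marker, called in Ptk6-/- only. The 250 bases before each start site were read from RefSeq on GRCm38.p6, an earlier build than the GRCm39 of the counts. They were searched on both strands for TTCNNNNGAA, the spacing bound by STAT6 downstream of interleukin 13, for TTCNNNGAA, the spacing bound by other STAT proteins, and for ATGCAAAT, the octamer bound by POU factors such as the tuft cell regulator POU2F3. Capitals mark the match.
Dclk1, chr3:55242114-55242363, plus strand, TTCNNNNGAA at 237 to 228 bases before the start: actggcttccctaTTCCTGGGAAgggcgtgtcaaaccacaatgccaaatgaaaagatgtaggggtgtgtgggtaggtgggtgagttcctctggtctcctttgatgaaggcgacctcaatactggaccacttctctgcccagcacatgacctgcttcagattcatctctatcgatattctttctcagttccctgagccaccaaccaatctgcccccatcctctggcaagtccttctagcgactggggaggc
Kcnj16, chr11:110967783-110968032, plus strand, TTCNNNGAA at 185 to 177 bases before the start: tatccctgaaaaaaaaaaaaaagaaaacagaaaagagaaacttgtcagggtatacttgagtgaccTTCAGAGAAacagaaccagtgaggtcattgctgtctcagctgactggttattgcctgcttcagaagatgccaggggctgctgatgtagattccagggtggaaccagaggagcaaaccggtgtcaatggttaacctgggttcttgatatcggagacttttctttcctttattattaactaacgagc
Gsdmc3, chr15:63878559-63878808, minus strand, none of the motifs: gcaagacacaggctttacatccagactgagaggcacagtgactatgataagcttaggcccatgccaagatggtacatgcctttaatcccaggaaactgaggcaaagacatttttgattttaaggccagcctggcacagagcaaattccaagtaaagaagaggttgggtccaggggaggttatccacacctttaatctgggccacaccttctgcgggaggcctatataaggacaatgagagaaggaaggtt
Dclk1 has 2 and Kcnj16 has 4 listed start sites, and in each gene 1 of them has the match. Of the 30 genes called in Ptk6-/- females, 20 had a RefSeq window. Among these, TTCNNNNGAA was found in Dclk1 and Slc28a1, TTCNNNGAA in Kcnj16, and ATGCAAAT in Egln3. Over all 32851 windows of the same length, 5.85% held TTCNNNNGAA, 7.02% held TTCNNNGAA and 1.6% held ATGCAAAT. These shares are per window, while the genes were listed by a match in any of their windows. A match is a description of these letters and nothing more.

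No gene was called for the interaction in edgeR. Of 20531 genes tested, 0 were called (0%), the smallest adjusted p was 0.752, and 1327 genes (6.46%) had an unadjusted p under 0.05, 472 above 0 (2.30%) and 855 below 0 (4.16%). The median interaction over all genes was -0.05, with 47.1% of genes above 0 and 52.9% below. The precision set how small a difference could be seen: the median standard error was 0.64 on the log2 scale, and the median 95% interval reached 1.39 to each side. DESeq2 on the same libraries called 61 genes (0.297%), 12 above 0 and 49 below.

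Without wild type succinate replicate 2, edgeR again called 0 of 20348 genes (0%), with 853 at an unadjusted p under 0.05 (4.19%), 355 above 0 (1.74%) and 498 below (2.45%). The smallest adjusted p was then 0.821. DESeq2 called 25 genes on the 11 libraries, of which 19 were among the 61.

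The succinate response itself was seen in both genotypes. In wild type females 12 genes were called, all higher after succinate (0.0584% of the genes tested), and in Ptk6-/- females 30 were called, all higher (0.146%). An unadjusted p under 0.05 was reached by 2013 genes in wild type (9.80%) and 2278 in Ptk6-/- (11.1%). DESeq2 called genes in both directions. It called 355 in wild type (1.73%), 291 higher and 64 lower, and 369 in Ptk6-/- (1.80%), 227 higher and 142 lower. The 12 were Pla2g4c, Gsdmc2, Gsdmc3, Gsdmc4, Gsdmcl2, Kcnj16, Siglecf, Cd55, Me1, Rsad1, Capn13 and Gm7329, and all of them were among the 30. The other 18, called in Ptk6-/- females and not in wild type females, included Alox5, Krt23, Rgs13, Pygl, Gm15675, Gsdmc, Rgs22, Naaa, Mptx1, Dclk1, Slc28a1, Cpvl, Egln3, Acss1, Sh2d7 and Avil. A call in 1 genotype only is not a difference between them: for 29 of the 30 genes the interaction ranged from -0.38 to 2.28, while Cpvl had no count in the Ptk6-/- controls and so no fitted value that can be read. The 30 were chosen by their rise in Ptk6-/-, a term of the interaction, so a lean above 0 follows in part from the choice. Counts over them are a description. Over the 30 the interaction had a median of 0.58 and was above 0 in 27. An unadjusted p under 0.05 was reached by Cpvl, Naaa and Slc28a1, against 6.46% of all genes. These counts include Cpvl, whose fit rests on an empty control group.

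The counts of called genes moved with single libraries. Without wild type succinate replicate 2, the wild type count was 3 (0.0147%) and the Ptk6-/- count 25 (0.123%), and 946 (4.65%) and 2572 genes (12.6%) had an unadjusted p under 0.05. Without wild type succinate replicate 3, the wild type treated library with the lowest tuft level, the wild type count was 614 and the Ptk6-/- count 87. The wild type count was 1 without wild type control replicate 1, 2 without wild type control replicate 2 or 3 or wild type succinate replicate 1, 3 without Ptk6-/- control replicate 1 or 2, 4 without Ptk6-/- succinate replicate 3, and 10 to 12 without each of the remaining 3 libraries. The Ptk6-/- count was 2, 3 and 11 without Ptk6-/- control replicates 1, 2 and 3, 17 and 12 without Ptk6-/- succinate replicates 2 and 3, and 22 to 37 without each of the others. The interaction count was 0 in all of these fits. When each genotype was fitted on its own 6 libraries, 0 genes were called in wild type and 17 in Ptk6-/-. Across the 20531 genes the log2 fold changes of the 2 genotypes, which share no library, had a Pearson correlation of 0.245 and a Spearman correlation of 0.193. The Pearson correlation was 0.295 over the 20348 genes of the 11 libraries. Genes are not independent replicates, and these correlations are a description.

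**Figure D1:**
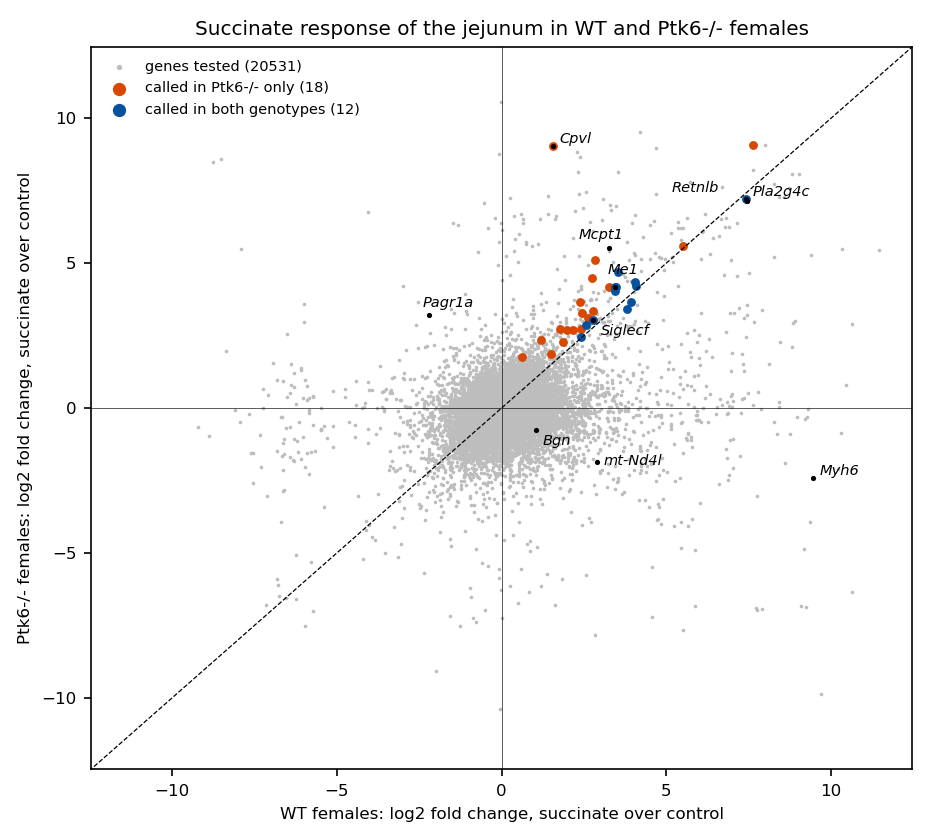
Log2 fold change after succinate in wild type females (x axis) against that in Ptk6-/- females (y axis), each point a gene of the 20531 tested, with the dashed line of equality. The 12 genes called in both genotypes (blue) and the 18 called in Ptk6-/- only (orange) lie in the upper right, most of them near or above the line. These genes were chosen by the plotted values, so their place is a description.

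At the sensing end of the tuft cell circuit no difference between genotypes passed the test. Sucnr1, the succinate receptor (ENSMUSG00000027762, chr3:59989290-59994987), was at 0.848, 0.157 and 0.565 CPM in wild type controls and 2.75, 2.99 and 1.96 CPM after succinate. In Ptk6-/- it went from 0.356, 0.446 and 1.01 to 1.79, 3.37 and 5.22 CPM. The succinate libraries lay above the controls of their own genotype without overlap, and the interaction was 0.23 ± 0.87 (95% interval -1.65 to 2.12). Trpm5, the cation channel at the end of the cascade (ENSMUSG00000009246, chr7:142622890-142640951, minus strand), was at 14.1, 9.78 and 9.08 and then 78.7, 74.3 and 23.7 CPM in wild type, and at 7.34, 12.7 and 12.1 and then 31.97, 55.00 and 81.9 CPM in Ptk6-/-. Its interaction was -0.029 ± 0.64 (95% interval -1.42 to 1.36), with the third wild type succinate library the lowest of the 6 treated libraries. The interactions of Sucnr1 and Trpm5 were 0.36 and 0.17 without wild type succinate replicate 2. Irag2, a tuft cell protein of the endoplasmic reticulum, had an interaction of 0.32 ± 0.62.

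Downstream of the receptor, Plcb2 was the member of the signalling list with the smallest p. This phospholipase C (ENSMUSG00000040061) was at 3.64, 3.49 and 3.61 CPM in wild type controls and 15.1, 14.03 and 7.67 CPM after succinate. In Ptk6-/- the controls were already at 9.02, 8.82 and 7.99 CPM and the succinate libraries at 10.1, 10.9 and 18.02 CPM. The groups did not overlap in either genotype, but the Ptk6-/- controls were higher than the wild type controls and the step was smaller. The interaction was -1.18 ± 0.44 (unadjusted p = 0.0193, adjusted p = 0.752 in edgeR) and -1.07 without wild type succinate replicate 2. Rgs13, which speeds the shut-off of G protein signals, was at 2.79, 0.783 and 1.42 and 9.58, 9.02 and 7.64 CPM in wild type and at 1.42, 1.805 and 1.095 and 10.6, 16.4 and 27.98 CPM in Ptk6-/-. The interaction of Rgs13 was 1.27 ± 0.65 and did not pass the test. Kcnj16, a potassium channel subunit, rose in both genotypes, from 0.446, 0.313 and 0.429 to 10.04, 8.27 and 2.15 CPM in wild type and from 0.889, 0.579 and 0.503 to 8.04, 17.4 and 11.3 CPM in Ptk6-/-. Its log2 fold changes were 4.1 and 4.21, and the interaction was 0.12 ± 0.75.

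Over the whole list of tuft cell signalling and effector genes, 24 of 24 were tested and 0 were called for the interaction in edgeR. Of the 24, only 1, Plcb2, had an unadjusted p under 0.05, against 6.46% of all genes. The interaction was above 0 in 16 and below 0 in 8, with a median of 0.15. Without single libraries this median lay between 0.02 (without wild type succinate replicate 3) and 0.47 (without wild type succinate replicate 1), and it was 0.33 without wild type succinate replicate 2. The median log2 fold change was 2.39 in wild type and 2.79 in Ptk6-/-, against 0.02 and -0.02 over all genes. Libraries did not overlap, with succinate higher, in 18 of 24 genes in wild type (6.34% of all genes) and 17 of 24 in Ptk6-/- (10.6% of all genes). Such separation was found in 15 genes in both genotypes, against 1.49% of all genes tested.

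Identity genes of tuft cells gave no called difference either. Dclk1, a kinase of microtubules used as the common tuft cell marker (ENSMUSG00000027797, chr3:55149785-55446489), was at 4.82, 3.63 and 4.27 and 20.4, 18.7 and 10.96 CPM in wild type. In Ptk6-/- it was at 3.202, 5.68 and 3.32 and 15.5, 21.3 and 41.5 CPM. Treated and control libraries did not overlap in either genotype, the highest value was Ptk6-/- succinate replicate 3, and the interaction was 0.7 ± 0.55 (95% interval -0.5 to 1.91). Siglecf, a sialic acid binding receptor found on tuft cells and eosinophils, rose in both genotypes (log2 fold change 2.77, adjusted p = 0.0481 in wild type; 3.02, adjusted p = 0.0156 in Ptk6-/-) with an interaction of 0.26 ± 0.56. Pou2f3, the transcription factor that tuft cells require, Avil, an actin binding protein of the tuft, and Gfi1b, a repressor made by tuft cells, had interactions of 0.84 ± 0.83, 0.48 ± 0.56 and 0.22 ± 0.88. Leaving out each library in turn moved Dclk1 between 0.20 and 1.03, Pou2f3 between 0.23 (without wild type control replicate 1) and 1.301 (without wild type control replicate 2), and Avil between 0.13 (without wild type succinate replicate 3) and 0.79 (without wild type succinate replicate 1). Of the 28 identity genes tested, 14 were above 0 and 14 below, with a median of 0.02 (0.23 without wild type succinate replicate 2 and -0.13 without wild type control replicate 1), and 12 were separated from controls upward in both genotypes, against 1.49% of all genes. Only 1 of the 28, Runx1, had an unadjusted p under 0.05, against 6.46% of all genes. Its interaction was -1.05 (unadjusted p = 0.0136, adjusted p = 0.752 in edgeR), between -1.20 and -0.95 without each library in turn. Because this is bulk tissue, more tuft cells and more RNA per tuft cell cannot be told apart.

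The eicosanoid pathway makes leukotrienes and prostaglandins from membrane lipid, and its phospholipase Pla2g4c rose in both genotypes. Pla2g4c, which encodes a cytosolic phospholipase A2 (ENSMUSG00000033847, chr7:13058580-13094597), was at 10.4, 4.63 and 5.397 CPM in wild type controls and 1812, 1163 and 545 CPM after succinate. In Ptk6-/- it was at 19.6, 14.7 and 13.6 and 1721, 2529.7 and 2968 CPM. The log2 fold change was 7.43 ± 0.6 in wild type (adjusted p = 0.000714) and 7.23 ± 0.6 in Ptk6-/- (adjusted p = 0.000755), and the interaction was -0.2 ± 0.64 (95% interval -1.6 to 1.2). The interval of this difference excludes a response that is more than 1.60 log2 units weaker, or 1.20 stronger, in Ptk6-/-. Alox5, the 5-lipoxygenase that starts leukotriene synthesis, was at 2.57, 1.12 and 3.43 and 22.2, 20.02 and 6.33 CPM in wild type and at 2.97, 1.87 and 1.81 and 14.8, 23.4 and 29.8 CPM in Ptk6-/-. Both groups were separated from their controls, and the interaction was 0.58 ± 0.71, between 0.20 and 0.92 without each library in turn. Its partner Alox5ap, the leukotriene C4 synthase Ltc4s and the cyclooxygenase Ptgs1 had interactions of 0.34 ± 0.93, -0.64 ± 1.32 and 0.25 ± 0.31. Over the 15 genes of the pathway tested, 9 were above 0 and 6 below, with a median of 0.34 (0.40 without wild type succinate replicate 2, 0.12 without wild type succinate replicate 3 and 0.05 without Ptk6-/- succinate replicate 2), and none reached an unadjusted p under 0.05 in edgeR.

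**Figure D2:**
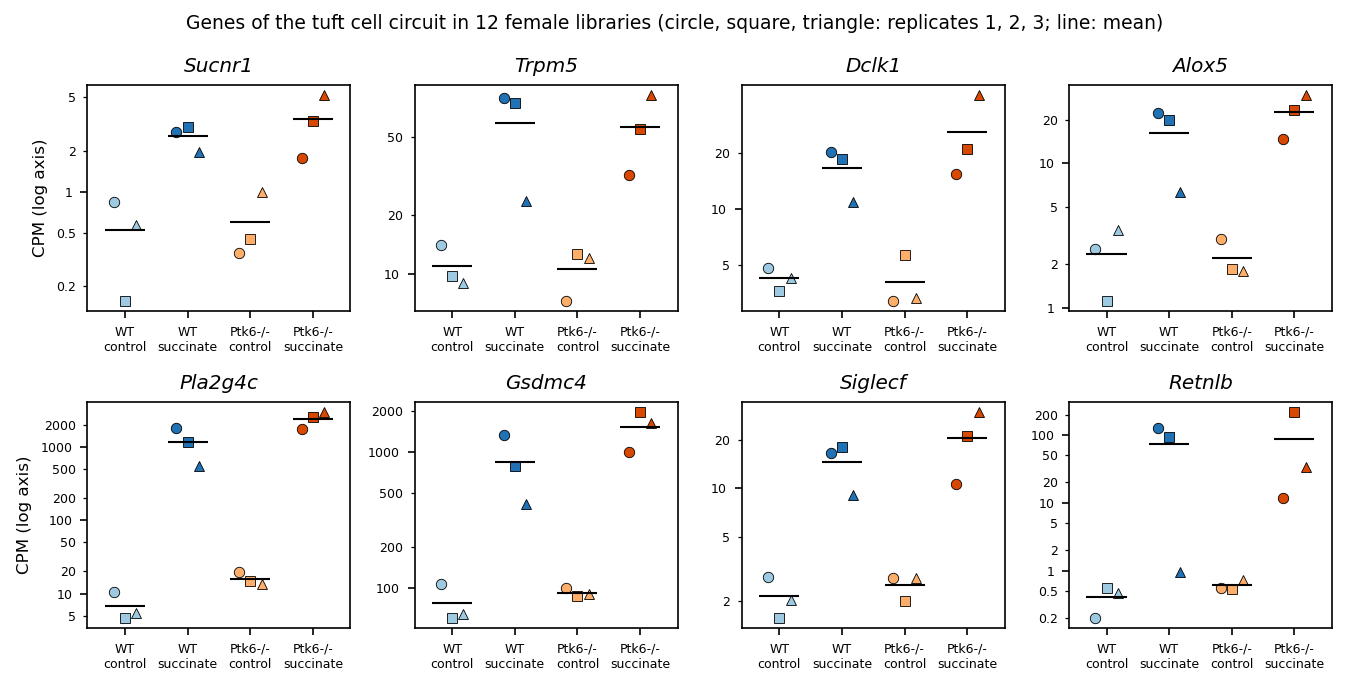
CPM (log axis) of Sucnr1, Trpm5, Dclk1, Alox5, Pla2g4c, Gsdmc4, Siglecf and Retnlb in the 12 female libraries, each point a library and each line a group mean. Both genotypes step up after succinate, the third wild type succinate library lies lowest of its group in every panel, and for Pla2g4c the 6 treated libraries lie at 545 CPM or more and the 6 controls at 19.6 CPM or less.

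Gasdermins form pores in membranes, and the C family of the intestinal epithelium is a target of interleukin 13. Gsdmc, Gsdmc2, Gsdmc3, Gsdmc4 and Gsdmcl2 are near-identical neighbours on chromosome 15, and how reads were shared among them is uncertain. Gsdmc4 (ENSMUSG00000055748, chr15:63763113-63784146, minus strand) was at 107, 60.5 and 64.8 CPM in wild type controls and 1337, 790.0 and 415 CPM after succinate. In Ptk6-/- it was at 100.1, 87.6 and 91.05 and 992, 1954 and 1626 CPM. No treated library overlapped a control, the rises passed the test in both genotypes (log2 fold change 3.45 and 4.04), and the interaction was 0.58 ± 0.6 (95% interval -0.72 to 1.89). Gsdmc, Gsdmc2 and Gsdmc3 had interactions of 0.91 ± 0.69, 0.31 ± 0.74 and 0.71 ± 0.6, while Gsdmcl2 was at -0.38 ± 0.64. Without each library in turn, Gsdmc ran from 0.39 to 1.41, Gsdmc3 from 0.41 to 1.19 and Gsdmc4 from 0.25 to 1.07. The other genes of the list, caspases, inflammasome sensors and the remaining gasdermins, had no member called in either genotype, and the median interaction over the 17 genes tested was 0.15 (0.01 without wild type succinate replicate 2 and -0.04 without Ptk6-/- control replicate 2).

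Among the genes called in Ptk6-/- females and not in wild type females, Naaa and Slc28a1 had interactions with an unadjusted p under 0.05. Cpvl also had such a p, from a fit with an empty control group, and none of these interactions was called. These genes were chosen by their rise in Ptk6-/-, a term of the interaction, so their p-values here are a description. Naaa, a lysosomal amidase of fatty acid ethanolamides, was at 38.9, 36.9 and 41.7 CPM in wild type controls and 73.02, 47.2 and 59.9 CPM after succinate, and at 28.7, 30.4 and 26.9 and 86.7, 109 and 97.1 CPM in Ptk6-/-. The 3 treated Ptk6-/- libraries were the highest of all 12 and the 3 Ptk6-/- controls the lowest. The interaction was 1.15 ± 0.31 (unadjusted p = 0.00279, adjusted p = 0.752 in edgeR). Slc28a1, a nucleoside transporter, was at 17.9, 6.16 and 29.7 and 164, 107 and 91.4 CPM in wild type and at 3.86, 4.12 and 7.16 and 107, 106 and 129 CPM in Ptk6-/-. The treated groups overlapped each other while the Ptk6-/- controls lay mostly below the wild type controls, and the interaction was 1.75 ± 0.66 (unadjusted p = 0.0214). Cpvl, a carboxypeptidase, had no count in the Ptk6-/- controls and 1.18, 0.943 and 2.42 CPM after succinate, a rise of at least 19.6-fold against a floor of 3 counts per library. In wild type Cpvl went from 0.357, 0.179 and 0.0903 to 0.459, 0.781 and 0.619 CPM. Me1, the NADP-dependent malic enzyme, rose in both genotypes with log2 fold changes of 3.43 and 4.18 and an interaction of 0.74 ± 0.45. Cd55, an inhibitor of complement, had an interaction of 0.3 ± 0.41, and Egln3, an oxygen-dependent prolyl hydroxylase, of 0.96 ± 0.45.

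At the cytokine end of the circuit the counts were low. Il25 was at 0, 0.0895 and 0 CPM in wild type controls, 0.9896, 1.497 and 0.108 CPM in wild type succinate, 0.102, 0 and 0 CPM in Ptk6-/- controls and 0.05701, 1.22 and 0.503 CPM in Ptk6-/- succinate. The third wild type and the first Ptk6-/- succinate libraries stayed at the level of a control library, and the interaction had a standard error of 2.3. Il13 had no count in any of the 6 control libraries, and was at 1.21, 0.911 and 0.108 CPM in the wild type succinate libraries and 0.513, 3.51 and 0.664 CPM in the Ptk6-/- succinate libraries. Against a floor of 3 counts per library these were rises of at least 11.03-fold and at least 20.2-fold, so both genotypes made Il13 transcripts after succinate. Il17rb, the interleukin 25 receptor subunit, and Il4ra, the shared receptor subunit for interleukins 4 and 13, had interactions of 0.56 ± 0.63 and 0.013 ± 0.35. Retnlb, a goblet cell protein induced by interleukin 13, was at 0.201, 0.5596 and 0.474 and 126, 92.2 and 0.942 CPM in wild type, and at 0.559, 0.535 and 0.7400 and 11.97, 218 and 33.7 CPM in Ptk6-/-. The third wild type succinate library was the lowest treated library for Retnlb, and the 95% interval of the interaction ran from -4.16 to 3.57.

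Mast cell proteases varied widely inside the treated groups. Mcpt1, a protease of mucosal mast cells, was at 5.73, 7.16 and 8.400 and 112, 85.3 and 5.57 CPM in wild type and at 5.21, 1.65 and 9.21 and 34.8, 663 and 48.7 CPM in Ptk6-/-. Ptk6-/- succinate replicate 2 was the highest library, and the third wild type succinate library lay below all 3 of its controls. The interactions of Mcpt1 and of its relative Mcpt2 were 2.29 ± 1.58 and 2.9 ± 1.42. Fcer1a, the alpha chain of the high affinity IgE receptor, had no count in the Ptk6-/- controls and was at 0.475, 3.11 and 0.359 CPM after succinate, a rise of at least 17.02-fold. Over the 10 mast cell genes tested, 8 were separated upward in Ptk6-/- and 4 in wild type, against 10.6% and 6.34% of all genes. Their median interaction was 0.86, 1.04 without wild type succinate replicate 2 and 0.03 without Ptk6-/- succinate replicate 2. Areg, a growth factor for epithelial repair, was at 5.58, 10.5 and 6.41 and 4.900, 2.77 and 5.87 CPM in wild type and at 2.03, 3.07 and 2.66 and 3.33, 3.41 and 3.697 CPM in Ptk6-/-, with an interaction of 1.15 ± 0.5. Of the 27 type 2 genes tested, 19 were above 0 with a median of 0.56. That median was 0.72 without wild type succinate replicate 2, 0.31 without wild type succinate replicate 3 and -0.02 without Ptk6-/- succinate replicate 2. An unadjusted p under 0.05 was reached by 2, Fcer1a and Areg, against 6.46% of all genes, and 0 were called. With an empty control group, the fitted value of Fcer1a cannot be read.

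Goblet cell genes gave no common direction. Muc2, the gel-forming mucin, was at 1551, 2155 and 2977 and 3120.0, 2278 and 1962 CPM in wild type and at 3149, 6997 and 7603 and 1867, 1326 and 2879.9 CPM in Ptk6-/-. Every treated Ptk6-/- library lay below every Ptk6-/- control, while the wild type groups overlapped. The interaction was -1.69 ± 0.63 (unadjusted p = 0.0206) and -1.74 without wild type succinate replicate 2. Creb3l1, a transcription factor of secretory cells, and P2ry4, a nucleotide receptor, also reached an unadjusted p under 0.05 with interactions of -1.19 ± 0.43 and -3.32 ± 1.34. In the whole goblet cell list 3 of 33 genes reached that threshold, each below 0, against 4.16% of all genes. Clca1, a goblet cell protein that processes mucus, was at 2757, 1415 and 2070.0 and 5415, 3472 and 3812 CPM in wild type and at 1786, 2570.1 and 2975 and 4356, 4351 and 4111 CPM in Ptk6-/-. Clca1 was separated upward in both genotypes with an interaction of -0.22 ± 0.51. Of 33 goblet cell genes tested, 19 were above 0, and the median was 0.26 with 12 libraries, -0.01 without wild type succinate replicate 2 and -0.19 without Ptk6-/- succinate replicate 2.

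Paneth cells, which secrete antimicrobial peptides at the base of the crypt, were read from their alpha-defensins and from other genes. Among the alpha-defensins, 38 of the 40 listed genes were tested and 37 had an interaction above 0, with a median of 0.84. Their median log2 fold change was -0.89 in wild type and 0.45 in Ptk6-/-. Without wild type succinate replicate 2 the median interaction was 0.59, and without each library in turn it lay between 0.29 and 1.64. In edgeR 3 of the 38 had an unadjusted p under 0.05, against 6.46% of all genes, and 0 were called. Summed over the family, the level was 39322 to 104545 CPM in wild type controls, 34609 to 96724 CPM in wild type succinate, 22809 to 77120 CPM in Ptk6-/- controls and 26601 to 100724 CPM in Ptk6-/- succinate. These sums overlapped in all 4 groups. The defensin genes are near-identical copies that share reads, so they are not independent observations. Lyz1, the Paneth cell lysozyme, and Mmp7, the protease that activates defensins, had interactions of 0.96 ± 0.74 and 0.74 ± 0.8, and the other Paneth genes had a median of 0.06 (0.04 without wild type succinate replicate 2), between -0.08 (without Ptk6-/- succinate replicate 2) and 0.69 (without wild type succinate replicate 1). Without wild type succinate replicate 2 the interaction of Lyz1 was 0.63. Over all fits that left out 1 library, Lyz1 ran from 0.54 to 1.29 and Mmp7 from 0.19 to 1.60.

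Absorptive enterocyte genes had no member called for the interaction. Alpi, Sis, Lct and Apoa4, which encode brush border alkaline phosphatase, sucrase-isomaltase, lactase and a chylomicron apolipoprotein, had interactions of -0.37 ± 0.85, 0.095 ± 0.76, -0.12 ± 1.51 and -0.24 ± 0.63. Without wild type succinate replicate 2 the values of Alpi, Sis and Lct were -0.69, -0.25 and -0.65. The median over 36 enterocyte genes was -0.19 with 12 libraries, -0.39 without wild type succinate replicate 2, 0.41 without wild type succinate replicate 3 and 0.16 without Ptk6-/- control replicate 3. With all 12 libraries their median log2 fold change after succinate was -0.69 in wild type and -0.82 in Ptk6-/-. For 15 genes of the distal small intestine the median interaction was -0.27, -0.51 without wild type succinate replicate 2, 0.36 without wild type succinate replicate 3 and 0.24 without Ptk6-/- control replicate 3. The bile acid transporter Slc10a2 was at 46.6, 81.98 and 93.3 and 9.003, 4.39 and 37.5 CPM in wild type and at 40.5, 73.2 and 56.9 and 26.5, 14.1 and 16.4 CPM in Ptk6-/-. It was separated downward in both genotypes, as were 5 of the 15 genes (1.33% of all genes). Fut2, a fucosyltransferase of the epithelium, was at 6.002, 4.92 and 2.69 and 70.3, 62.3 and 18.1 CPM in wild type and at 7.04, 10.5 and 17.1 and 38.4, 76.8 and 88.4 CPM in Ptk6-/-, with no overlap in either genotype and an interaction of -0.91 ± 0.73. Reg3b and Reg3g, antimicrobial lectins, were below their controls in all 6 treated libraries. Reg3g was at 2756, 5463 and 1918 and 154, 61.2 and 453 CPM in wild type and at 2096, 2792 and 13902 and 608, 153 and 92.7 CPM in Ptk6-/-, and its interaction was -0.54 ± 1.3. Over the 27 antimicrobial and interleukin 22 target genes the median was -0.18 (-0.26 without wild type succinate replicate 2), between -0.52 (without Ptk6-/- succinate replicate 2) and 0.51 (without Ptk6-/- control replicate 3).

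Sdhd, a membrane anchor subunit of succinate dehydrogenase, the enzyme that oxidises succinate in the respiratory chain, had an interaction above 0. Sdhd (ENSMUSG00000000171, chr9:50507657-50515112, minus strand) was at 198, 221 and 197 CPM in wild type controls and 192, 211 and 159.6 CPM after succinate. In Ptk6-/- it was at 118, 118 and 122 and 230.5, 286 and 203 CPM. The wild type groups overlapped, the Ptk6-/- groups did not, and the 3 Ptk6-/- controls were the lowest libraries of the 12. The interaction was 1.14 ± 0.33 (unadjusted p = 0.00439, adjusted p = 0.752 in edgeR and 0.0497 in DESeq2), and 1.23 without wild type succinate replicate 2. Sdha, Sdhb and Sdhc had interactions of 0.087 ± 0.35, -0.11 ± 0.72 and 0.16 ± 0.5, or 0.27, 0.39 and 0.31 without wild type succinate replicate 2. The 15 genes of succinate metabolism and transport had a median of 0.04, between -0.09 (without wild type succinate replicate 1) and 0.27 (without wild type succinate replicate 2). Whether Sdhd differs from the other subunits was not tested.

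Coq10b, which encodes a coenzyme Q binding protein of the mitochondrion (ENSMUSG00000025981, chr1:55091929-55111861), was 1 of the 6 genes above 0 with the smallest p. It was at 24.7, 19.2 and 24.5 and 16.3, 18.5 and 18.5 CPM in wild type and at 13.1, 13.1 and 11.2 and 19.4, 32.5 and 26.3 CPM in Ptk6-/-. Every treated wild type library was below every wild type control, and every treated Ptk6-/- library above every Ptk6-/- control, an opposition found in 0.857% of all genes. The interaction was 1.42 ± 0.34 (unadjusted p = 0.00119, adjusted p = 0.752 in edgeR and 0.0295 in DESeq2), 1.40 after an overlapping gene on its strand was added to it, and between 1.23 and 1.60 without each library in turn.

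Genes of the endoplasmic reticulum stress response, the programme that matches protein folding to secretion, leaned above 0. Hspa5, the chaperone BiP, was at 752, 746 and 489 and 511, 356 and 506 CPM in wild type and at 532, 458 and 235 and 638, 942 and 695 CPM in Ptk6-/-. The wild type groups overlapped and the Ptk6-/- groups did not. Its interaction was 1.43 ± 0.5 (unadjusted p = 0.0146). Atf4, the transcription factor of the integrated stress response, was at 236, 389 and 258 and 271, 146 and 209.6 CPM in wild type and at 195, 161 and 139.6 and 233, 357 and 202 CPM in Ptk6-/-. Atf4, its target Trib3 and Creld2, a secreted stress protein, had interactions of 1.17 ± 0.47, 1.72 ± 0.62 and 1.32 ± 0.56, each with an unadjusted p under 0.05. Of the 23 genes of the list, 19 were above 0, 4 reached that threshold (2.30% of all genes did so above 0) and 0 were called. Their median was 0.59 with 12 libraries and 0.43 with 11, when 2 genes reached the threshold, and lay between 0.43 and 0.72 without each library in turn. The same list had a median of -0.21 in males, and -0.06 without the 2 male libraries rich in 18S counts that are described with the males.

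Interferon-stimulated genes leaned below 0. Of 40 tested, 28 were below 0 with a median of -0.44, and Oas2, Gbp4, Gbp6, Gbp7 and Mx1 reached an unadjusted p under 0.05 (4.16% of all genes did so below 0). Oas2, which senses double-stranded RNA, was at 3.53, 2.22 and 2.05 and 3.43, 27.4 and 3.12 CPM in wild type and at 3.303, 5.15 and 3.64 and 3.25, 1.305 and 3.39 CPM in Ptk6-/-. Its high value was wild type succinate replicate 2 alone, and the interaction of -2.73 ± 1.03 became -0.94 without that library. Gbp6, a guanylate binding protein, was at 12.3, 15.4 and 3.91 and 1.76, 30.6 and 12.2 CPM in wild type and at 19.4, 17.2 and 12.2 and 4.79, 2.13 and 2.82 CPM in Ptk6-/-. The treated Ptk6-/- libraries were below their controls for Gbp6, while the wild type groups overlapped. Its interaction was -2.82, and -1.73 without wild type succinate replicate 2. With 11 libraries the median of the 40 genes was -0.34, and 1 gene, Mx1, reached the threshold. The median was -0.10 without wild type succinate replicate 3, and between -0.47 and -0.08 under 4 processing alternatives. Class II histocompatibility genes had a median of -0.40 over 12 genes (-0.42 without wild type succinate replicate 2), and 0.30 without Ptk6-/- control replicate 3. Proliferation genes were above 0 in 25 of 32, with a median of 0.25, and without wild type succinate replicate 2 in 18 of 32, with a median of 0.06.

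**Figure D3:**
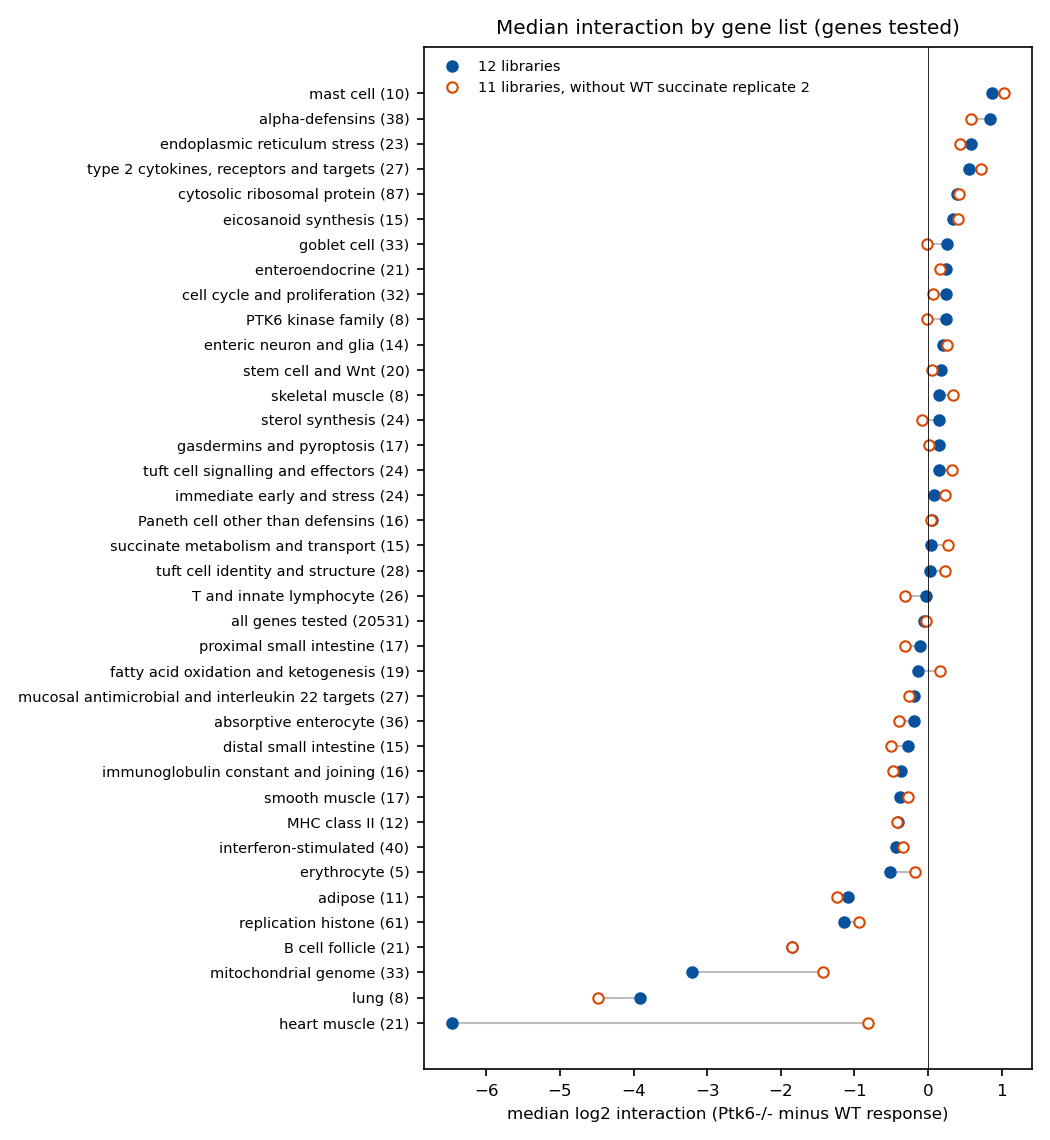
Median log2 interaction of each gene list over its tested members, with all 12 female libraries and without wild type succinate replicate 2. Tuft, gasdermin, enterocyte and metabolic lists lie within 0.5 of 0, while heart muscle moves from -6.47 to -0.81 and mitochondrial genes from -3.21 to -1.43 when that library is left out.

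The genes with the smallest p included several whose counts depend on how overlapping genes were counted. Pagr1a, a subunit of a histone methyltransferase complex (ENSMUSG00000030680, chr7:126614205-126616524, minus strand), was at 20.99, 25.8 and 18.6 and 5.21, 8.04 and 1.05 CPM in wild type and at 1.702, 1.45 and 1.54 and 10.9, 25.6 and 6.68 CPM in Ptk6-/-. The 2 genotypes moved in opposite directions without overlap, and the interaction was 5.39 ± 0.9 (unadjusted p = 6.52e-05, adjusted p = 0.752 in edgeR and 1.21e-05 in DESeq2). When its counts were added to those of Pagr1b and Gm42742, which overlap it on the same strand, the interaction was 0.41 ± 0.47. Ptp4a1, a phosphatase, has a pair of gene models over the same span on chromosome 1, and the interaction of -5.7 ± 1.1 for the first (ENSMUSG00000026064) was 0.08 ± 0.31 for their sum. Srcap, a chromatin remodeller, went from -5.48 to -0.67 in the same way. A 7SK gene inside Celf2 also moved, as given with the small RNAs. These sums were added after seeing the data, and they leave Coq10b and mt-Nd4l near their single-gene values.

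Bgn, a proteoglycan of connective tissue (ENSMUSG00000031375, chrX:72527208-72539539), was at 60.7, 52.5 and 67.5 and 154, 139.7 and 80.6 CPM in wild type and at 108, 106 and 168 and 79.9, 78.1 and 66.7 CPM in Ptk6-/-. Wild type libraries were higher after succinate and Ptk6-/- libraries lower, without overlap in either. The interaction was -1.81 ± 0.41 (unadjusted p = 0.00084, adjusted p = 0.752 in edgeR and 0.0147 in DESeq2) and -1.72 with 11 libraries. Smooth muscle genes, whose summed level was 4615 to 5748 CPM in wild type controls, 5903 to 10023 CPM in wild type succinate, 3563 to 6609 CPM in Ptk6-/- controls and 5431 to 6663 CPM in Ptk6-/- succinate, had a median interaction of -0.38 (-0.27 without wild type succinate replicate 2). The part of muscle wall in the Bgn values was not tested.

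**Figure D4:**
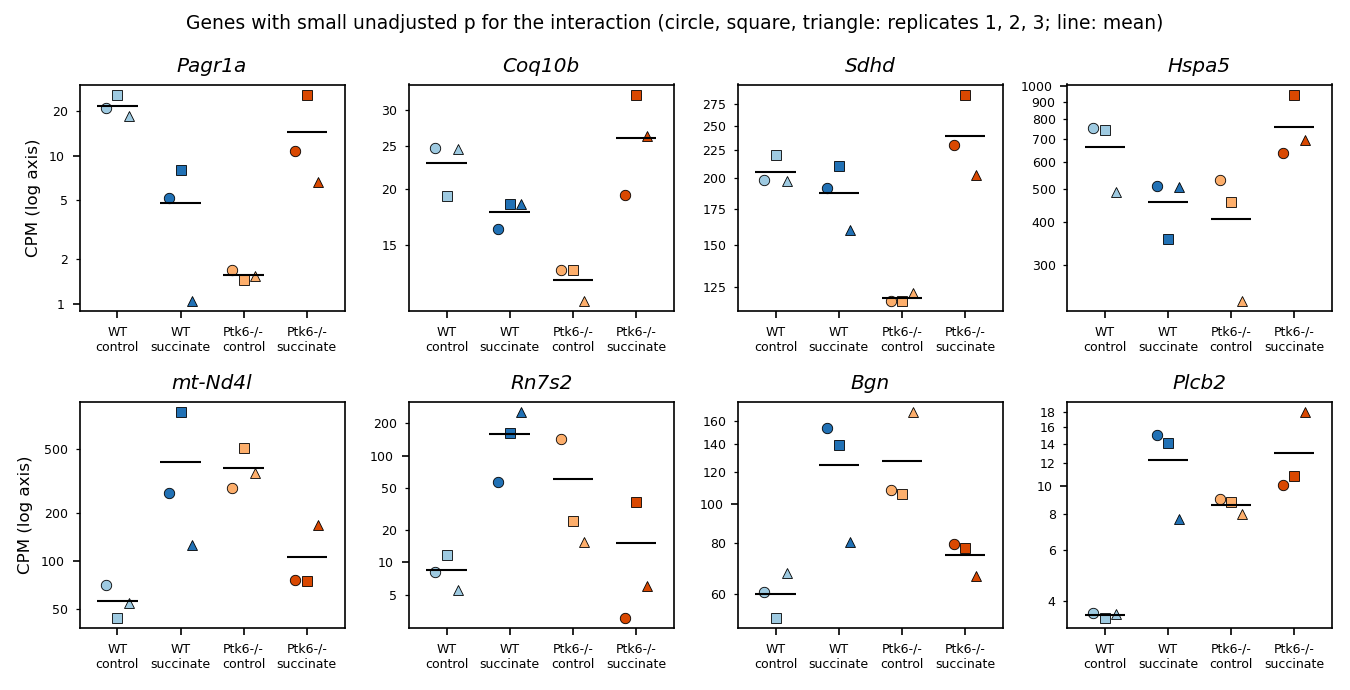
CPM (log axis) of Pagr1a, Coq10b, Sdhd, Hspa5, mt-Nd4l, Rn7s2, Bgn and Plcb2 in the 12 female libraries, each point a library and each line a group mean. Coq10b, Sdhd and Hspa5 step up in Ptk6-/- and not in wild type, Bgn and mt-Nd4l step up in wild type and down in Ptk6-/-, and Plcb2 starts higher in Ptk6-/-.

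Transcripts of the mitochondrial genome, which encode subunits of the respiratory chain and their ribosomal and transfer RNAs, were the list with the most members at an unadjusted p under 0.05. All 33 tested were below 0, with a median of -3.21. Of these, 27 were under that threshold, against 4.16% of all genes under it and below 0. The median log2 fold change was 1.80 in wild type and -0.92 in Ptk6-/-. mt-Nd4l (ENSMUSG00000065947, chrMT:9877-10173) was at 69.99, 43.7 and 53.9 and 267, 854 and 126 CPM in wild type and at 285, 509.6 and 353 and 75.4, 74.1 and 167 CPM in Ptk6-/-. Its groups did not overlap in either genotype, and the interaction was -4.75 ± 0.87 (unadjusted p = 0.000143, adjusted p = 0.752 in edgeR and 6.59e-05 in DESeq2), -3.67 with 11 libraries, and -4.18 when summed with the overlapping mt-Nd4. For mt-Co1, cytochrome c oxidase subunit 1, the wild type succinate libraries were at 6209, 47877 and 15238 CPM, the second of which is the library with heart transcripts, and the interaction was -1.92 ± 0.95 with 12 libraries and -0.81 with 11. With 11 libraries the list median was -1.43. Of the 27, 10 kept an unadjusted p under 0.05, all below 0, against 2.45% of all genes under it and below 0. The share of all counts on these genes was 2.19% to 3.21% in wild type controls, 2.53% to 13.6% in wild type succinate, 4.44% to 8.54% in Ptk6-/- controls and 1.67% to 4.45% in Ptk6-/- succinate. The same list had a median of 0.54 in males, and 0.06 without the 2 male libraries rich in 18S counts.

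Small RNAs without a poly(A) tail also had interactions below 0. A list of 12 such genes (7SK, 7SL, U1, U2 and vault RNAs), chosen after values were seen, had a median of -6.55 (-6.44 without wild type succinate replicate 2), between -8.42 and -4.83 without each library in turn, and 11 of the 12 were below 0. Of the 12, 5 overlap another gene on their strand. Added to the gene they lie in, 1 of the 7SK genes (ENSMUSG00002075987) went from -6.17 to -1.75 with Celf2, and Rnu1a1, which is at the floor of 3 counts or under in the wild type controls, was at -1.71 with Tex14. The list median was -6.46 with all such sums and -6.47 with groups at the floor set to 3 counts, which 5 of the 12 genes have. Rn7s2, a 7SL RNA of the signal recognition particle, was at 8.12, 11.8 and 5.58 and 56.6, 164 and 255 CPM in wild type and at 143, 24.3 and 15.7 and 3.02, 36.4 and 6.07 CPM in Ptk6-/-. The wild type groups did not overlap, while Ptk6-/- control replicate 1 stood above the rest of its group. A list of 61 histone genes was mostly replication-dependent, with messages that end in a stem loop and not a poly(A) tail. It had a median of -1.14, with 47 genes below 0. Of these, 12 had an unadjusted p under 0.05, against 4.16% of all genes. The member with the smallest p, H1f2, lay above 0, at 1.49 (unadjusted p = 0.00493 in edgeR). The median was -0.94 without wild type succinate replicate 2, -0.61 without Ptk6-/- control replicate 3 and -1.59 without Ptk6-/- succinate replicate 2. The percent of counts on 18S ribosomal RNA, which a poly(A) library should lack, was 0.161 to 0.215 in wild type controls, 0.981 to 3.80 in wild type succinate, 0.171 to 2.76 in Ptk6-/- controls and 0.108 to 1.01 in Ptk6-/- succinate. This percent was highest in the group where the small RNAs were highest, and its part in their interaction was not tested. In males the small RNA list had a median of 11.1 and the histones 5.30. Among the male libraries, wild type control replicate 1 and Ptk6-/- succinate replicate 1 had 51.2% and 29.7% of their counts on 18S. Without those 2 male libraries the medians were 2.67 over 9 small RNAs and 0.19 over 60 histones.

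Markers of other tissues and of lymphoid follicles were also measured. B cell follicle genes had a median of -1.85 over 21 genes (-1.86 without wild type succinate replicate 2), 20 of them below 0 and 0 with an unadjusted p under 0.05. Their summed level was 29.7 to 62.8 CPM in wild type controls, 71.3 to 161.9 CPM in wild type succinate, 56.4 to 153.5 CPM in Ptk6-/- controls and 43.4 to 206.4 CPM in Ptk6-/- succinate. These ranges overlapped between treated and control libraries in Ptk6-/- but not in wild type. The median stayed below 0 without each library in turn, from -3.78 to -1.42, and under 4 processing alternatives, from -1.86 to -0.72. Cd79a, a signalling chain of the B cell receptor, was at 10.5, 14.9 and 8.87 and 13.9, 38.1 and 15.2 CPM in wild type and at 16.5, 23.4 and 16.9 and 8.36, 11.1 and 24.1 CPM in Ptk6-/-, with an interaction of -1.35 ± 0.65 (-0.73 without wild type succinate replicate 2). Scgb1a1, a secretoglobin of airway club cells, was at 0 in the 3 wild type controls and in 2 of the 3 wild type succinate libraries, at 10.9 CPM in the third, and at 7.24, 7.15 and 10.5 and 4.24, 5.84 and 3.75 CPM in Ptk6-/-. The lung list had a median of -3.91 over 8 genes, -4.48 without wild type succinate replicate 2, -1.96 with empty groups set to 3 counts, and -0.52 without wild type succinate replicate 3. Adipose genes had a median of -1.09 over 11 genes, -1.24 without wild type succinate replicate 2 and 0.54 without replicate 3 of that group. The part of these tissues in other results was not tested.

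The difference from males was tested directly. Fitted in the same way on the 12 male libraries, the interaction was called in 0 of 20340 genes (0%), 772 genes passed an unadjusted p of 0.05 (3.80%), and adjusted p-values started at 0.0749. DESeq2 called 65 male genes. The 12 genes called in both female genotypes, a list chosen on the female values and so a description, had female interactions from -0.38 to 1.16, with a median of 0.28, and none of their 95% intervals excluded 0. In males the interaction of the same 12 genes ran from -5.20 to -1.14, with a median of -1.81, was below 0 in 12 of 12 and had an unadjusted p under 0.05 in 9.

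Pla2g4c is 1 of these 12 genes. In males it was at 4.05, 1.26 and 3.10 CPM in wild type controls and 98.4, 114.1 and 755.6 CPM in wild type succinate. In Ptk6-/- males it was at 4.88, 12.6 and 2.82 CPM in the controls and 20.3, 2.98 and 42.1 CPM after succinate. The Ptk6-/- male groups overlapped, whereas the Ptk6-/- female groups lay far apart. The female interaction of Pla2g4c was -0.2 ± 0.64, the male interaction -5.2 ± 1.4, and their difference 5.04 ± 1.59 (unadjusted p = 0.00462, adjusted p = 0.638 in edgeR). Gsdmc4, Kcnj16, Cd55 and Me1 had male interactions of -1.81, -3.82, -1.53 and -2.1, against 0.58, 0.12, 0.3 and 0.74 in females.

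The sex by genotype by succinate term is the female interaction minus the male interaction. It was above 0 in 12 of the 12 genes, with an unadjusted p under 0.05 in 8 and a smallest adjusted p of 0.581. Because the term contains the female values that chose the 12 genes, its counts over them, here and below, are a description. Over all genes, 0 of 21694 were called for this term (0%), 1299 passed an unadjusted p of 0.05 (5.99%), and adjusted p-values started at 0.156. DESeq2 called 99. Without female wild type succinate replicate 2, 0 of 21568 were called (0%) and 1040 had an unadjusted p under 0.05 (4.82%).

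A pair of male libraries was rich in 18S counts: wild type control replicate 1 with 51.2% and Ptk6-/- succinate replicate 1 with 29.7% of its 8080321 counts. Without these 2, a choice made after seeing the data, 7 of 20258 genes were called for the male interaction (0.0346%). The 12 genes then ran from -5.49 to -0.93, again below 0 in 12 of 12 and with an unadjusted p under 0.05 in 7 (3.93% of all genes). The sex by genotype by succinate term was above 0 in 12 of the 12, with an unadjusted p under 0.05 in 7 genes (4.23% of all genes), and 0 of 21653 genes were called. Trpm5, which is not among the 12 genes, had a male interaction of 0.58 ± 0.41. The tuft cell signalling list had a median of -0.87 over the 21 genes tested in males against 0.15 over 24 in females, and the alpha-defensins 0.90 against 0.84. Without the 2 male libraries rich in 18S counts these male medians were -0.51 and -0.07.

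**Figure D5:**
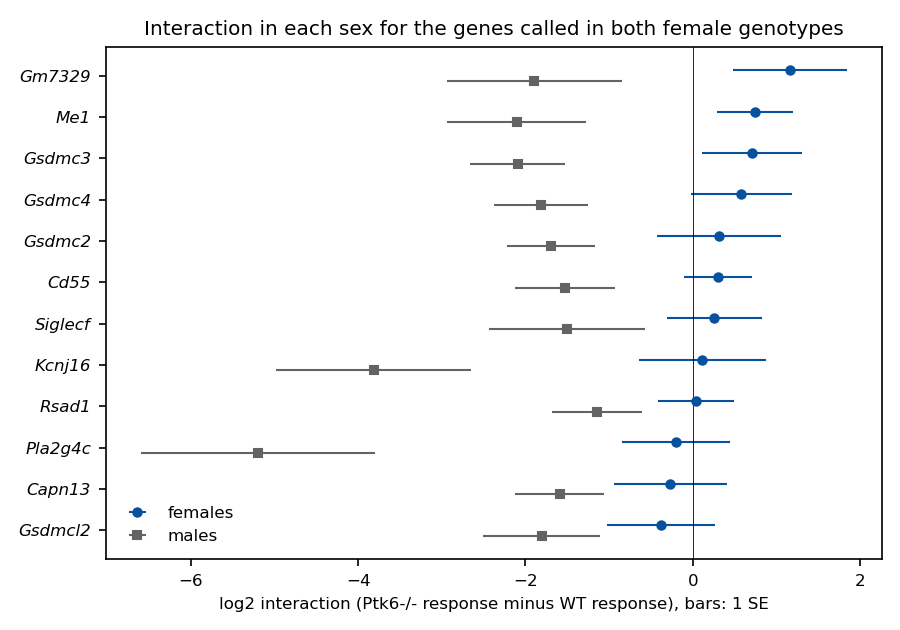
Log2 genotype by succinate interaction of the 12 genes called in both female genotypes, in females and in males, each point a fitted value with a bar of 1 SE to each side. The female values lie between -0.38 and 1.16, around 0, and the male values lie between -5.20 and -1.14, below 0 in all 12 genes.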

How the data were processed

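Poly(A) RNA from distal jejunum was sequenced on stranded libraries. Per the labels and the study's methods, the authors used Cutadapt 1.9, FastQC 0.11.9, HISAT2 2.0.4, StringTie 1.3.4d and gffcompare 0.9.8 on GRCm39, and deposited raw counts per gene and FPKM values. Counts drove the tests; the deposited FPKM served as an alternative and gave gene lengths. Counts were normalised by TMM and fitted with edgeR 4.0.16 (quasi-likelihood, R 4.3.3), with 1 coefficient per group over the 12 female libraries, and both genotype effects came from this fit. CPM values use TMM library sizes. Alternatives used DESeq2 1.42.0 and limma 3.58.1, other filters, offsets and libraries. Errors are standard errors of the fit, and the tests were first tested on simulated data. Named genes were Ptk6, the 6 smallest p per direction with and without wild type succinate replicate 2, the first 4 of the epithelial and type 2 lists, and the smallest p of each list, with others named for their role. Groups do not overlap when all 3 libraries of a group lie on the same side of all 3 of the other. The 40 gene lists, the genes and the comparison were chosen with earlier results of these data known. The labels mark libraries as biological replicates, so p-values measure the spread between libraries taken as separate mice. In fits that hold wild type succinate replicate 2, that spread includes its heart muscle transcripts. Intervals take no account of cage or litter. Some genes are not reported here.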

Additional observations from a re-analysis of the deposited data

How the results depend on the processing

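In edgeR and limma the interaction count was 0 under every alternative, and without each of the 12 libraries in turn (0 to 0); DESeq2 called 61 on 12 libraries and 25 without wild type succinate replicate 2, 65 in males and 99 for the sex term, and 7 male genes were called without 2 male libraries rich in 18S counts. The wild type and Ptk6-/- counts were 355 and 369 in DESeq2, 20 and 334 with voom sample weights, 87 and 132 with all 24 libraries in the fit, and 0 and 17 with each genotype's own 6 libraries. On log2(FPKM + 1) and log2(FPKM + 0.1) the Ptk6-/- count was 52 and 59. Without each library in turn the wild type count ranged from 1 to 614 and the Ptk6-/- count from 2 to 87. The cause was not tested. A standard error near 0.64 limits what these libraries can show.

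With the replicate block (the replicate number as a term) 2 wild type and 8 Ptk6-/- genes were called, and with the block and a gene length offset 2 and 10; the interaction count was 0. The labels give the numbers no shared origin: deviations of libraries with the same number had a mean correlation of -0.042 over 18 pairs, and 4 of 12 libraries correlated best with their own number.

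Of 905 single-gene values under these alternatives, 35 changed sign. Il4ra was at -0.011 in DESeq2 and with its size factors, -0.021 with counts required in every library and -0.000451 with the block. Trpm5 was at 0.00689 with the block, 0.00521 with the length offset, 0.016 with both, and 0.18 and 0.22 on log2(FPKM + 1) and log2(FPKM + 0.1). Lct was at 0.033 with the length offset, 1.64 with voom weights, and 0.23 and 0.11 on FPKM. Xist was at 0.084 with the offset and 0.13 with offset and block, and Eif2s3y at 9.74 in DESeq2. Voom weights gave Irag2 -0.26, Gfi1b -0.82, Ltc4s 0.28, Gsdmc2 -0.34, Il13 -0.18, Il17rb -0.13, Fcgbp 0.021, Tff3 0.64, Alpi 0.47 and Hba-a1 0.94. On log2(FPKM + 1) and log2(FPKM + 0.1), Ltc4s was at 0.041 and 0.32, Retnlb at 0.70 and 0.60, Tff3 at 0.41 and 0.42, and Apoa4 at 0.030 and 0.030. Ptp4a1 was at 0.080 when its gene models were summed.

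Leaving out each library in turn, done for 86 of the named genes, changed the sign of 18, whose interactions ranged as follows. Sucnr1 ran from -0.30 to 0.81, Trpm5 from -0.41 to 0.25, Il25 from -4.21 to 2.97, Irag2 from -0.036 to 0.69, Gfi1b from -0.21 to 0.63, Alox5ap from -0.36 to 0.94, Ltc4s from -1.56 to 1.08, Gsdmc2 from -0.11 to 0.87, Il13 from -0.33 to 1.62, Il4ra from -0.17 to 0.19, Retnlb from -2.24 to 0.35, Tff3 from -0.80 to 1.14, Pla2g2f from -0.093 to 1.06, Alpi from -0.76 to 0.47, Sis from -0.31 to 0.92, Lct from -1.11 to 2.09, Apoa4 from -0.58 to 0.21 and Hba-a1 from -1.32 to 0.82. Il13 had no count in any control library, so its fitted values, here and under voom weights, cannot be read.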

Other observations

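Other gene groups of the jejunal wall were measured in the same fit, and none of their members was called for the interaction in edgeR. Cytosolic ribosomal protein genes, which encode the protein part of the translating ribosome, were above 0 in 71 of 87, with a median interaction of 0.39 (0.42 without wild type succinate replicate 2). Without Ptk6-/- succinate replicate 2 that median was -0.18, so the direction rests on single libraries. Hormone-making enteroendocrine cell genes were above 0 in 14 of 21, with a median of 0.25 (0.16 without wild type succinate replicate 2) that stayed above 0 without each library in turn (0.031 to 0.80). Among them Scg2, a granin of secretory granules, had an interaction of 1.35 ± 0.58 (unadjusted p = 0.0372, adjusted p = 0.752 in edgeR). Immunoglobulin constant and joining genes had a median of -0.37 over 16 genes (-0.47 without wild type succinate replicate 2), between -0.72 and -0.15 without each library in turn. Jchain, which joins IgA monomers made by plasma cells, moved apart from that median with an interaction of 1.51 ± 0.55 (unadjusted p = 0.017, adjusted p = 0.752 in edgeR).

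For sterol synthesis (24 genes), fatty acid oxidation (19 genes) and T and innate lymphocyte genes (26 genes) the medians were 0.15, -0.14 and -0.03 with 12 libraries and -0.08, 0.16 and -0.31 without wild type succinate replicate 2. Each of these medians changed sign when single libraries were left out. Cd4, the coreceptor of helper T cells, was at 6.74, 5.93 and 5.01 and 4.03, 4.95 and 7.00 CPM in wild type and at 9.27, 11.6 and 14.6 and 5.49, 2.05 and 4.79 CPM in Ptk6-/-. Every treated Ptk6-/- library lay below every Ptk6-/- control for Cd4, while the wild type groups overlapped, and the interaction was -1.38 ± 0.53 (unadjusted p = 0.0234, adjusted p = 0.752 in edgeR).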
